A study of Homo sapiens with 2 samples.

Results

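The antisense transcripts described here are the rows whose gene symbol ends in -AS and a number, the naming given to a transcript read from the strand opposite to a neighbouring or overlapping gene. Of the 23398 rows of the gene tables, 151 carried such a symbol, and after 2 second copies on chromosome Y were dropped 149 antisense genes remained. A sense row, the gene left when -AS and the number are removed, was found for 143 of them, and the other 6 are named for HOX clusters rather than for 1 gene. The rule used symbols only and no measured value.

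RNA was sequenced from 2 cultures of 786-O, an established human clear cell renal carcinoma line, with 1 library per line. The wild-type library came from 786-O with intact SETD2, and the knockout library from 786-O in which SETD2 had been disrupted by a zinc finger nuclease, an engineered enzyme that breaks DNA at an intended target. Both lines were grown in RPMI1640 with fetal bovine serum and received medium only, and whether the knockout line was 1 clone is not given in the sources used here. The comparison asks how transcripts differ between cells with and without SETD2, the enzyme that trimethylates lysine 36 of histone H3 along transcribed genes.

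Antisense transcripts fall into a few arrangements. Some start beside the promoter of a coding gene and run away from it, some end inside the 3-prime part of a gene that faces them, and some lie wholly within an intron or exon of the sense gene. Many are rapidly degraded by the nuclear RNA exosome, whereas others are spliced, stable and abundant, and several of these carry small nucleolar RNAs (snoRNAs) in their introns. The histone mark placed by SETD2 is known for limiting transcription that starts inside genes.

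The start regions of 6 members are shown because the results below turn on them. PCBP1-AS1, DICER1-AS1 and FLVCR1-AS1 each start beside the start of their sense gene and run away from it. ZNFX1-AS1 and C17orf76-AS1 were the most abundant members and host snoRNAs, and MAGI2-AS3 was an abundant member whose interval lay beyond 1.5-fold lower in the knockout library. Each sequence runs 5-prime to 3-prime on the strand of the antisense transcript, from up to 250 bases before to 50 bases after its RefSeq start in GRCh38.p14, without bases that fall in a protein-coding exon, and capitals mark CpG dinucleotides.
PCBP1-AS1 (chr2:70086966-70087265, minus strand): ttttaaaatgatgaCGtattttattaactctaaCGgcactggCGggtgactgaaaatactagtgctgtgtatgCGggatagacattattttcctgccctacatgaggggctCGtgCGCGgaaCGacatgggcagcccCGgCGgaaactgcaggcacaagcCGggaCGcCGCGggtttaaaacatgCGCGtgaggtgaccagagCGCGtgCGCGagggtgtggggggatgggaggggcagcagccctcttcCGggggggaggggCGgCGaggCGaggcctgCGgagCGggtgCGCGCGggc
DICER1-AS1 (chr14:95157487-95157737, plus strand): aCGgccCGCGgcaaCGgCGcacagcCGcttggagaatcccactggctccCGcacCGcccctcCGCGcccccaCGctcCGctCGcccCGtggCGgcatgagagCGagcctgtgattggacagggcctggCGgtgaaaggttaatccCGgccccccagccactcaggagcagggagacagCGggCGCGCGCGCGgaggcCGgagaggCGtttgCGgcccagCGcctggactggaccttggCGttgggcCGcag
FLVCR1-AS1 (chr1:212858089-212858254, minus strand): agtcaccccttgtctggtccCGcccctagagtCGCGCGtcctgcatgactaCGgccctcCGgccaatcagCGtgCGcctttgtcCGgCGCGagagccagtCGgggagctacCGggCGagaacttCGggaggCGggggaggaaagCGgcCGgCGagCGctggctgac
ZNFX1-AS1 (chr20:49278427-49278691, plus strand): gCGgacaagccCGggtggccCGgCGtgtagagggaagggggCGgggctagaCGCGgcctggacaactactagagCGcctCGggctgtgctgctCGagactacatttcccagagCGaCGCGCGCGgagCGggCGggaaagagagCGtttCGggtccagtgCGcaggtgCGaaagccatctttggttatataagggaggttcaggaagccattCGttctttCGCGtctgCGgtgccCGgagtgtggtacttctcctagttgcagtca
C17orf76-AS1 (chr17:16438737-16439036, plus strand): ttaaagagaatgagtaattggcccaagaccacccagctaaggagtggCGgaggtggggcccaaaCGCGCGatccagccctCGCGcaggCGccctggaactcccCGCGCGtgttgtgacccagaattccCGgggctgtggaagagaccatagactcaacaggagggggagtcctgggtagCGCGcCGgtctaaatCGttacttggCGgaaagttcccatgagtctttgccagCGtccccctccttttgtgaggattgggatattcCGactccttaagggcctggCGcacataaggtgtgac
MAGI2-AS3 (chr7:79452707-79453006, plus strand): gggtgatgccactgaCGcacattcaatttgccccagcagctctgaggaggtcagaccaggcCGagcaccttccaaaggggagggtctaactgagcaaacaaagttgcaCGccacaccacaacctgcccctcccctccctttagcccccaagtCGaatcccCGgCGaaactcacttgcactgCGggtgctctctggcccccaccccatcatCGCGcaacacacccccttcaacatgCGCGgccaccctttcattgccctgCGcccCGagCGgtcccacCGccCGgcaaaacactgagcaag

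Over the 107 members with a RefSeq start region, the median ratio of observed to expected CpG was 0.64, against 0.58 over all 27305 start regions. The ratio was 0.69 for the 76 members that were measured in these cells and 0.33 for the 31 that were not. It was 0.90 for the 18 members in a head-to-head arrangement with a gap of under 1000 bases to the sense gene and 0.23 for the 19 that lie inside the sense gene. Those 18 have a RefSeq start region, measured or not, and are not the same set as the 18 measured pairs described below. Start regions of measured and of divergent members were thus richer in CpG than those of unmeasured and of internal members. The GC box, searched as GGGCGG on both strands, was present in 48.6% of members and in 44.6% of all start regions of this length. The TATA box, searched as TATAAA on both strands, was present in 4.67% and 12%, and in 0 of the 18 divergent members with a short gap. These matches describe letters in RefSeq windows, and RefSeq starts can differ from those of the deposited rows. The starts of MAFG-AS1 and MAFG were 4836 bases apart in RefSeq, whereas the deposited spans were 117 bases apart. The starts of MCF2L-AS1 and MCF2L were 74303 bases apart, with 582 bases between the deposited spans.

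The libraries held 62304084 wild-type and 50670012 knockout fragments in gene rows. SETD2 fell from 4908 to 1404 fragments, a scaled ratio of 0.334 with an exact 95% interval from 0.314 to 0.354. Of 8 renal tubule and carcinoma markers, 7 were measured. The highest was the filament gene VIM, at 1734 and 1192 RPKM, the reads scaled by gene length and library total. CA9 had 1 and 0 fragments. The summed level of 4 leukocyte markers was 0.0490 RPKM in the wild-type and 0.305 RPKM in the knockout library, with CD3E at 0 in both and CD14 at 7 and 38 fragments. The 3 endothelial markers summed to 0.0152 and 0.0121 RPKM, and the 4 fibroblast markers to 1.54 and 0.615 RPKM. Apart from LUM, at 1.38 and 0.537 RPKM, markers of other cell types were thus near 0 in both libraries, and their part in the results was not tested. With 1 library per line, a difference describes the pair of libraries and has no replicate error behind it. Intervals cover counting error only, and fewer cells of a type cannot be told apart from less RNA per cell.

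Whether counting used strand is not given in the sources used here, so overlap with the sense gene was examined first. The spans of antisense and sense row overlapped in 100 of 143 pairs. In GENCODE 29, which places 137 members, exons of 33 members overlapped no exon of the other strand, those of 74 overlapped for under 25% of their bases, and those of 30 for 25% or more. Several members had almost no fragments although their sense gene was expressed. PCNA-AS1, whose row of 384 bases lies inside PCNA, the sliding clamp of DNA replication, had 0 and 0 fragments, while PCNA had 9249 and 7312. ZFAT-AS1, with 97.8% of its exon bases opposite other exons, also had 0 and 0 fragments beside 643 and 632 of ZFAT. ENO1-AS1 had 13 and 8 fragments beside 201476 and 130573 of the enolase gene ENO1. These rows thus held few or no fragments beside an expressed sense gene. How reads in shared bases were handled is not given, and reads counted in both rows or in neither cannot be followed in gene totals. The low counts therefore cannot show whether reads of the sense gene fell on these rows.

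Among the 15 measured members inside their sense gene, the median antisense level was 0.518% of the sense level per length in the wild-type and 1.52% in the knockout library. COL18A1-AS1, inside the gene of collagen XVIII, had 46 and 52 fragments beside 36476 and 46156 of COL18A1. Across these 15 pairs the Spearman correlation of antisense and sense RPKM was 0.45 in each library, a description of points that share a library and may share reads. Across all 97 measured pairs it was 0.12 in the wild-type and 0.17 in the knockout library.

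Antisense transcripts were a small part of the RNA and were dominated by few genes. The 149 members held 47982 fragments, 0.0770% of the wild-type library, and 45557 fragments, 0.0899% of the knockout library. The 3 most abundant took 55.3% and 63.4% of these. At least 10 deposited reads over both libraries were counted for 107 members, which are called measured here. Of the other 42, 25 had 0 fragments in both libraries and 17 had fewer reads than the minimum. Fragments were absent from the wild-type library alone for 10 members and from the knockout library alone for 6. GENCODE 29 lists 3 of the rows as protein-coding genes: ATPAF1-AS1 (now TEX38) had 2 and 4 fragments, HOXB-AS5 (now PRAC2) 1 and 0, and AATK-AS1 (now PVALEF) 1 and 1. A mean level of at least 1 RPKM was reached by 29 members and of at least 10 RPKM by 4.

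C17orf76-AS1, now named SNHG29, is the host of SNORD49A, SNORD49B and SNORD65 and lay at chr17:16342301-16373962 (hg19). It was the most abundant member, at 69.8 RPKM in the wild-type and 101 RPKM in the knockout library. ZNFX1-AS1, now named ZFAS1, is the host of SNORD12, SNORD12B and SNORD12C at chr20:47894715-47905795 and stood at 51.7 and 86.6 RPKM. Both snoRNA hosts thus had the higher RPKM in the knockout library and lay well above the members that follow. FGD5-AS1, at chr3:14984286-14989948, reached 17.4 and 16.6 RPKM. OIP5-AS1, also known as cyrano, reached 15.8 and 13.1 RPKM. Both of these were spliced transcripts more abundant than the genes they are named for, and neither had the higher RPKM in the knockout library.

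**Figure D1:**
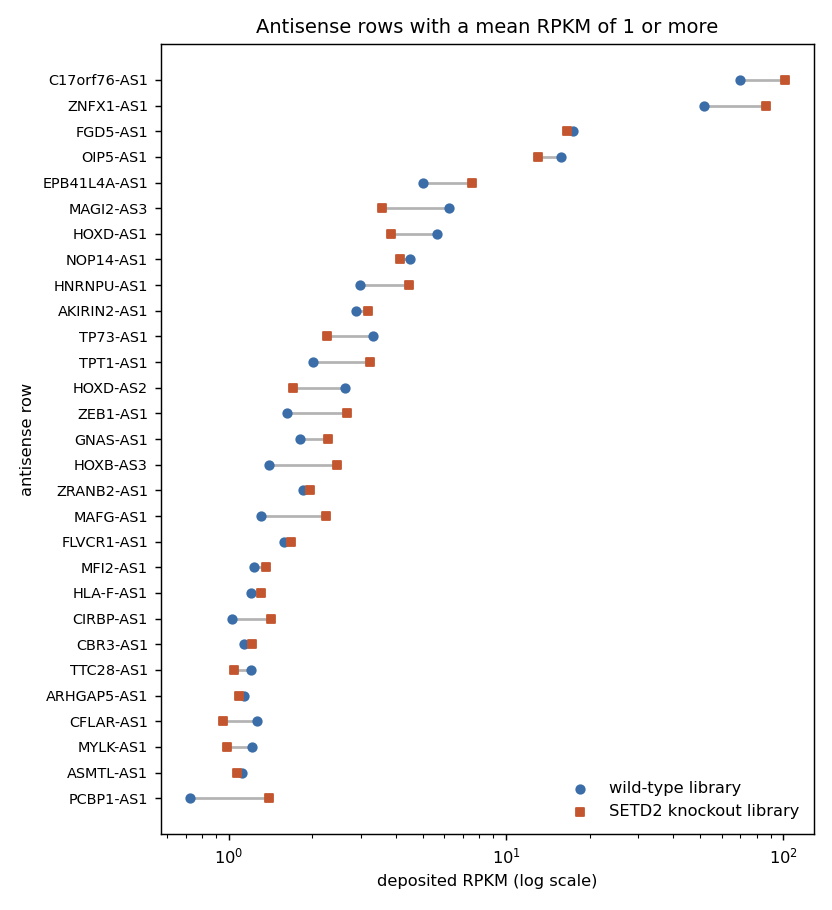
The deposited RPKM on a log scale is drawn for the 29 antisense rows with a mean of at least 1 RPKM, with a circle for the wild-type and a square for the knockout library. C17orf76-AS1 and ZNFX1-AS1 lie far to the right of the other rows, and MAGI2-AS3 shows the knockout library to the left of the wild type, at 3.57 against 6.24 RPKM.

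The remaining members of the 10 most abundant lay between 2.89 and 7.51 RPKM in both libraries. EPB41L4A-AS1, the host of SNORA13, stood at 5.02 and 7.51 RPKM. NOP14-AS1 stood at 4.52 and 4.16, and AKIRIN2-AS1 at 2.89 and 3.17 RPKM. HNRNPU-AS1 stood at 2.97 and 4.48 RPKM and shares bases with COX20, an assembly factor of cytochrome oxidase, whose row fell from 374 to 128 fragments. Of these 4, the levels of EPB41L4A-AS1 and HNRNPU-AS1 were the ones further apart between the libraries.

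Most antisense rows lay far below their sense gene. Per length, the median antisense level was 4.97% of the sense level in the wild-type and 4.76% in the knockout library over the 97 pairs with both rows measured. The antisense level was under 10% of the sense level in both libraries in 60 pairs and under 1% in 16. It exceeded the sense level in both libraries in 10 pairs. These included both abundant snoRNA hosts, FGD5-AS1, OIP5-AS1, TP73-AS1 and MAGI2-AS3. TP73-AS1 stood at 3.30 and 2.27 RPKM, while TP73, a relative of the tumour suppressor p53, stood at 0.382 and 0.174 RPKM. Some of these sense rows were near 0, such as FGD5 with 10 and 3 fragments, whereas ZNFX1 with 14216 and 10437 fragments was well expressed.

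**Figure D2:**
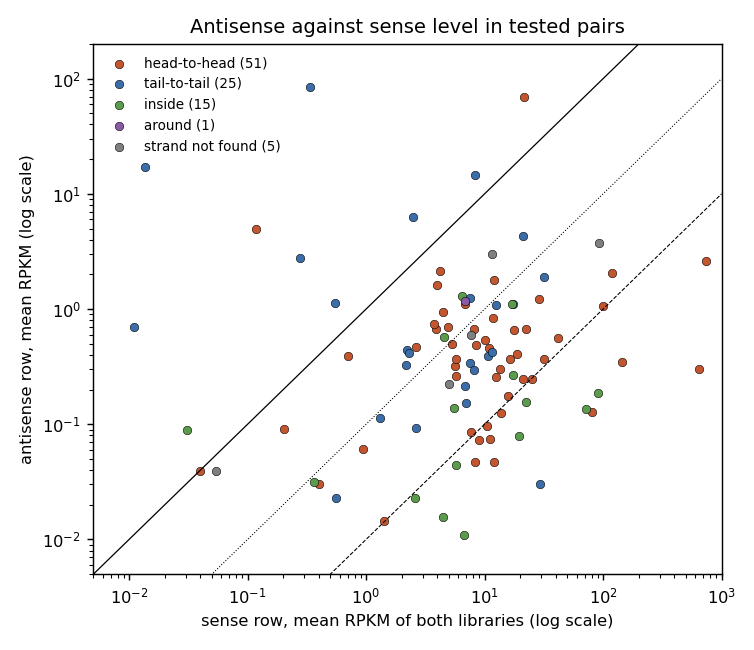
Each point is 1 of the 97 pairs, with the mean RPKM of the sense row on the x axis and of the antisense row on the y axis, both on log scales, coloured by arrangement. The solid line marks equal levels, the dotted line 10% and the dashed line 1% of the sense level, and most pairs lie below the dotted line.

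Few antisense transcripts differed strongly between the libraries. A row was counted as higher or lower when the whole exact 95% interval of its scaled ratio lay beyond 2-fold. By this rule 0 of the 107 measured members were higher, against 5.75% of all 16894 measured rows, and 1 was lower, against 3.37%, so that 1 was called in either direction, against 9.12%. With the interval beyond 1.5-fold, 5 members were higher, against 10.4% of all rows, and 2 were lower, against 9.17%, or 7 in either direction, against 19.6%. Without any interval, 20 members were more than 2-fold higher and 7 more than 2-fold lower, with no share over all rows given here for this rule. Wide ratios without an interval were common among scarce rows in general. Under 50 fragments the upper quartile of the log2 ratio was 1.57 for 38 members and 1.76 for all 3218 rows.
Low counts limit such calls. A row with 100 fragments in all had to reach a ratio of 3.15, and one with 500 fragments a ratio of 2.43, to be counted as higher at 2-fold. From 50 to under 500 fragments, 0 of 54 members passed at 2-fold in either direction, against 20.4% of the 2882 rows of that range and 8.09% of the 136 other long non-coding rows in it. From 500 fragments on, 0% of 15 members passed at 2-fold, against 5.63% of 10794 rows. At 1.5-fold, 13.3% of these 15 passed, near the 17.2% of all rows and the 15.4% of 78 other long non-coding rows of that range.

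HAS2-AS1 was the member called lower at 2-fold. It is transcribed opposite HAS2, the gene of a hyaluronan synthase that makes a glycan of the extracellular matrix, at chr8:122651586-122657564 (hg19). It had 36 fragments in the wild-type and 0 in the knockout library, at least 10.3-fold lower against a floor of 3 fragments for the knockout library, and the exact interval starts at 7.95-fold lower. HAS2 itself fell from 102 to 9 fragments, a ratio of 0.103 with an interval from 0.0458 to 0.203. Both transcripts of this locus were thus nearly lost from the knockout library, and their spans overlap by 2045 bases.

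MAGI2-AS3 was lower at 1.5-fold and is an abundant long non-coding RNA whose start lies head-to-head with the start of MAGI2, a scaffold protein of cell junctions. It lay at chr7:79082273-79100524 and fell from 4984 to 2311 fragments, a ratio of 0.541 with an interval from 0.515 to 0.568. MAGI2 had 51 and 71 fragments, a ratio of 1.62 with an interval from 1.12 to 2.37. The antisense RNA therefore outnumbered its sense gene in both libraries, and the intervals of the pair lay on opposite sides of 1.

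Of the 5 members higher at 1.5-fold, 1 was abundant. ZNFX1-AS1 had 4560 and 6192 fragments, a ratio of 1.58 with an interval from 1.52 to 1.65. The other 4 had at most 74 fragments in a library. DICER1-AS1, beside the gene of the nuclease that cuts microRNA precursors, had 38 and 74 fragments. KDM5B-AS1, beside a histone H3 lysine 4 demethylase, had 16 and 40. KANSL1-AS1, inside the gene of a subunit of the NSL acetyltransferase complex, had 11 and 33 fragments, and CECR5-AS1 had 4 and 19. All 4 were thus scarce transcripts with more fragments in the knockout library. Their ratios were 2.27, 2.92, 3.5 and 5.54, and their intervals started at 1.52, 1.60, 1.73 and 1.84.

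**Figure D3:**
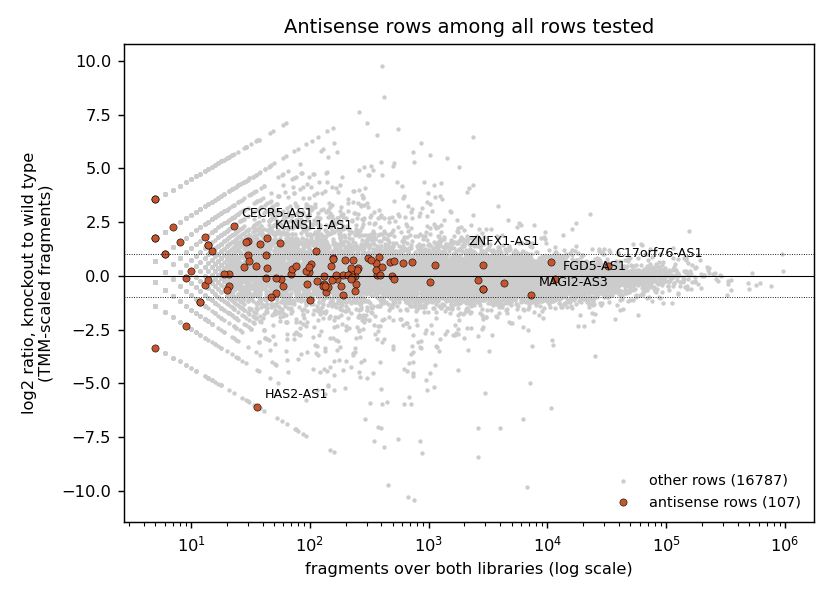
The log2 ratio of knockout to wild type is plotted against the fragments of both libraries (log scale), with the 107 measured antisense rows in colour and all other rows in grey, and dotted lines at 2-fold. Antisense rows with many fragments lie near 0, and the widest ratios are found where fragments are few.

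The median log2 ratio of the 107 members was 0.17, with quartiles at -0.25 and 0.73, and 67 of them were above 0. Over all measured rows the median was 0.02, over protein-coding rows 0.01, over other long non-coding rows 0.28 and over LINC rows 0.42. Antisense rows were thus placed between protein-coding and other non-coding rows. The offset went with abundance: under 50 fragments the median was 0.81 for 38 members and 0.49 for all rows, and from 500 fragments on it was -0.13 for 15 members and -0.06 for all rows. From 50 to under 500 fragments it was 0.05 for 54 members and 0.25 for all rows. The higher median under 50 fragments was therefore also seen over all measured rows, and the median of members with many fragments was below 0.

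The 3 members that host snoRNAs all had ratios above 1. C17orf76-AS1 had 14995 and 17638 fragments, a ratio of 1.37 with an interval from 1.34 to 1.40. EPB41L4A-AS1 had 514 and 624 fragments, a ratio of 1.42 with an interval from 1.26 to 1.59. Together with ZNFX1-AS1 their intervals all lay above 1, and that of ZNFX1-AS1 also above 1.5. For the 13 rows of other hosts named SNHG or GAS5 this was not so: their median log2 ratio was -0.18, with ratios from 0.593 for SNHG12 to 1.53 for SNHG9. The snoRNA rows themselves had few fragments: SNORD12, inside ZNFX1-AS1, had 69 and 111, and SNORD49A, inside C17orf76-AS1, had 43 and 42.

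The antisense transcripts of the HOX clusters, which encode the transcription factors of body axis and segment identity, had no sense row of their own and differed in direction. HOXD-AS1, at chr2:177037924-177053686 between HOXD3 and HOXD1 and overlapping the latter, had 1839 and 1019 fragments, a ratio of 0.646 with an interval from 0.598 to 0.698. HOXD-AS2 had 156 and 82, a ratio of 0.613. HOXB-AS3 had 136 and 194, a ratio of 1.66 with an interval from 1.33 to 2.09. The intervals of both HOXD members thus lay below 1 and that of HOXB-AS3 above 1, but none passed 1.5-fold. HOXA-AS5 had 96 and 74 fragments and HOXA-AS3 had 34 and 37, and the intervals of both included 1. HOXB-AS5 had 1 and 0 fragments.

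The neighbouring HOX genes did not all move with these transcripts. Beside HOXD-AS1, HOXD1 had 202 and 141 fragments, a ratio of 0.814, whereas HOXD3 had 100 and 175, a ratio of 2.04. HOXB5 and HOXB6, whose spans HOXB-AS3 overlaps, had ratios of 1.73 and 1.19. In GENCODE 29, 30.1% of the exon bases of HOXB-AS3 lie opposite other exons, so its fragments may be shared with them, which was not tested.

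Of 39 antisense genes listed for having been studied in other settings, 17 had a row and 13 were measured. ZEB1-AS1 starts 76 bases from the row of ZEB1, a transcription factor of the epithelial to mesenchymal transition. It had 308 and 410 fragments, a ratio of 1.55 with an interval from 1.34 to 1.81, while ZEB1 had a ratio of 1.01 with an interval from 0.948 to 1.07. TP73-AS1 had 1829 and 1020 fragments, a ratio of 0.650, and TP73 had 181 and 67, a ratio of 0.432. OIP5-AS1 had 2570 and 1720 fragments, a ratio of 0.781, and OIP5, which helps to load the centromeric histone, a ratio of 0.861. The interval of ZEB1-AS1 thus lay above 1 beside a sense row whose interval included 1, and those of TP73-AS1 and TP73 both lay below 1.

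Other characterised members were scarce. MCM3AP-AS1 had 88 and 65 fragments, AFAP1-AS1 had 50 and 48, and FAM13A-AS1 had 32 and 25. ZEB2-AS1 had 0 and 3, below the minimum. CDKN2B-AS1, also known as ANRIL, had 0 and 0 fragments, as did HIF1A-AS2 and PCNA-AS1. CDKN2B had 0 and 1 fragments, so both strands of that locus were at or near 0. A count of 0 allows up to 3 fragments, or 0.0494 and 0.0577 CPM, the count relative to the scaled library size.

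By the role of the sense gene, the groups were small. The median log2 ratio was -0.15 for 5 HOX members, 0.01 for 4 members named for transcription factors, -0.29 for 2 named for cell cycle or DNA genes and 0.28 for 4 named for matrix or cytoskeleton genes. The matrix group included HAS2-AS1, its 1 member called at 2-fold.

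Within pairs the antisense row was compared directly with its sense row. The difference of the log2 ratios was above 0 in 62 of 97 pairs, with a median of 0.29. The exact interval of the ratio of ratios, which does not depend on how the libraries are scaled, lay above 1 in 25 pairs (25.8%) and below 1 in 11 (11.3%). For 366 other long non-coding rows set against the nearest protein-coding row, the same shares were 24.3% above 1 and 15.3% below 1, with a median difference of 0.22. Beyond 1.5-fold there were 7 pairs above, against 9.29% of those rows, and 3 below, against 5.19%. The shares of antisense pairs were thus near those of other non-coding rows. With at least 100 antisense fragments the difference was smaller, above 0 in 32 of 53 pairs with a median of 0.17. In those 53 pairs the interval lay above 1 in 16 (30.2%) and below 1 in 11 (20.8%). The antisense and sense log2 ratios had a Spearman correlation of 0.30 and a Pearson correlation of 0.37 over the 97 pairs. Over the 32 pairs whose spans do not overlap the Spearman correlation was 0.52, and over the 65 whose spans overlap it was 0.24, all points sharing both libraries.

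**Figure D4:**
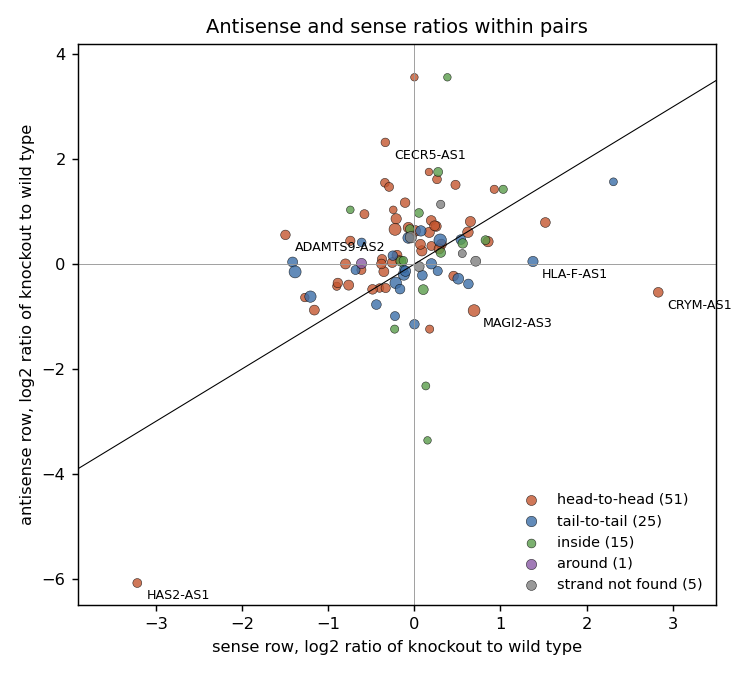
Each point is 1 of the 97 pairs, with the log2 ratio of the sense row on the x axis and of the antisense row on the y axis, coloured by arrangement and larger with more antisense fragments. Points on the line moved alike, and HAS2-AS1 lies at the lower left, where its height is set by the 0.5 added fragments, and CRYM-AS1 far below the line at the right.

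The 3 pairs in which the antisense row fell short of the sense row beyond 1.5-fold were led by CRYM-AS1. CRYM, which binds thyroid hormone in the cytosol, had 21 and 131 fragments, a ratio of 7.28 with an interval from 4.57 to 12.1. CRYM-AS1 had 90 and 53 fragments, a ratio of 0.687, and its share of the fragments of the pair was 81.1% in the wild-type and 28.8% in the knockout library, with exact binomial intervals from 72.5% to 87.9% and from 22.4% to 35.9%. The balance of this locus was therefore turned over between the libraries, with no overlap of the intervals. HLA-F-AS1 had 196 and 174 fragments, while HLA-F, a non-classical class I antigen gene, had 587 and 1308. The share of HLA-F-AS1 was 25% and 11.7%. The third pair was MAGI2-AS3 with MAGI2, given above.

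In 7 pairs the antisense row exceeded the sense row beyond 1.5-fold. ADAMTS9, the gene of a secreted metalloprotease that cleaves matrix proteoglycans, fell from 12335 to 3749 fragments, a ratio of 0.354. ADAMTS9-AS2 had 45 and 57 fragments, a ratio of 1.48, so that the ratio of ratios was 4.17 with an interval from 2.76 to 6.31. The antisense row of this locus was not lower beside its lower sense gene, although their spans overlap by 2820 bases. ZNFX1-AS1 took 24.3% of the fragments of its pair in the wild-type and 37.2% in the knockout library, and ZNFX1, a helicase of the antiviral response, had a ratio of 0.856. PCBP1-AS1 had 149 and 233 fragments, a ratio of 1.82, beside PCBP1, a poly(C) binding protein, with a ratio of 0.864. The remaining pairs had few antisense fragments beside an abundant sense gene. RAD21-AS1 had 11 and 27 fragments beside the cohesin subunit gene RAD21, with a ratio of 0.816. MLLT4-AS1 had 8 and 21 fragments beside MLLT4, which encodes the junction protein afadin, with a ratio of 0.789. DICER1-AS1 and CECR5-AS1 complete this group, with ratios of ratios of 2.45 and 7.0.

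The sense rows of measured pairs that were themselves called at 2-fold were 4 lower and 4 higher of 95 rows, or 8.42%, near the 9.12% of all rows. Beside the lower ones, CYP1B1-AS1 and RUSC1-AS1 had log2 ratios of -0.88 and -0.64, ADAMTS9-AS2 had one of 0.56, and HAS2-AS1 was lower by the bound given above. Beside the higher ones, TSC22D1-AS1, CHST9-AS1 and HLA-F-AS1 had log2 ratios of 0.79, 1.57 and 0.05, and CRYM-AS1 one of -0.54. Of these 8 antisense rows only HAS2-AS1 was itself called, so no pair was called in opposite directions. CYP1B1-AS1 had 129 and 60 fragments, and CYP1B1, a cytochrome that oxidises steroids and xenobiotics, had a ratio of 0.447. CHST9-AS1 had 2 and 6 fragments, which leaves its ratio between 0.626 and 35.4.

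The difference within pairs varied with the arrangement of antisense and sense row. Of 51 head-to-head pairs, in which the starts face apart or overlap, 41 had a higher antisense than sense ratio, with a median difference of 0.47. The interval lay above 1 in 19 of them (37.3%) and below 1 in 5 (9.80%). Of 25 tail-to-tail pairs, in which the ends face each other, 10 had a higher antisense ratio, with a median difference of -0.08. Their intervals lay above 1 in 3 (12%) and below 1 in 4 (16%). For the 366 other long non-coding rows these shares were 24.3% and 15.3%, and those rows were not split by arrangement. Of 15 pairs with the antisense row inside the sense gene, 8 had a higher antisense ratio, with a median difference of 0.19. The median antisense row had 129 fragments in the head-to-head, 153 in the tail-to-tail and 30 in the inside group. With at least 100 antisense fragments, 23 of 29 head-to-head and 6 of 18 tail-to-tail pairs had a higher antisense ratio. The difference between arrangements was not tested, and it was not seen among pairs whose spans do not overlap: there the antisense ratio was higher in 5 of 6 tail-to-tail pairs, with a median difference of 0.57, and in 21 of 24 head-to-head pairs, with a median difference of 0.50. Where spans overlap, it was higher in 5 of 19 tail-to-tail and 20 of 27 head-to-head pairs, with median differences of -0.31 and 0.31. By class of exon overlap the median difference was 0.36 for 17 pairs with none, 0.28 for 52 pairs under 25% and 0.31 for 19 pairs with 25% or more. The antisense rows of the head-to-head group on their own had a median log2 ratio of 0.43, which was -0.31 for the 12 of them with no exon overlap on the other strand.

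Head-to-head pairs with a gap between their spans share no base between the antisense and the sense row. The gap was under 1000 bases, at a median of 127 bases, in 22 pairs, of which 18 were measured. This group was chosen after the ratios had been seen. The antisense ratio was higher than the sense ratio in 17 of 18 pairs, with a median difference of 0.56, and the interval lay above 1 in 9 and below 1 in 0. With at least 100 antisense fragments it was higher in 11 of 12, with a median difference of 0.56.

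The 9 pairs with the interval above 1 were those of MLLT4-AS1, DNAJC27-AS1, DICER1-AS1, PCBP1-AS1, FLVCR1-AS1, MAFG-AS1, WDFY3-AS2, ZEB1-AS1 and RBM26-AS1. MAFG-AS1 had 212 and 295 fragments, a ratio of 1.62, beside a ratio of 0.954 for MAFG, a partner of the stress-responsive factor NRF2. WDFY3-AS2 had 62 and 95, a ratio of 1.79, beside 1.15 for the autophagy adaptor gene WDFY3. FLVCR1-AS1 differed in kind, with 128 and 110 fragments and a ratio of 1.0, while FLVCR1, first described as a haem exporter, fell to 0.575. DNAJC27-AS1, 17 bases from DNAJC27, had 16 and 27 fragments beside a sense ratio of 0.669. The exception among the 18 was TPT1-AS1, with 263 and 344 fragments and a ratio of 1.53, level with 1.54 for the growth-associated gene TPT1.

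**Figure D5:**
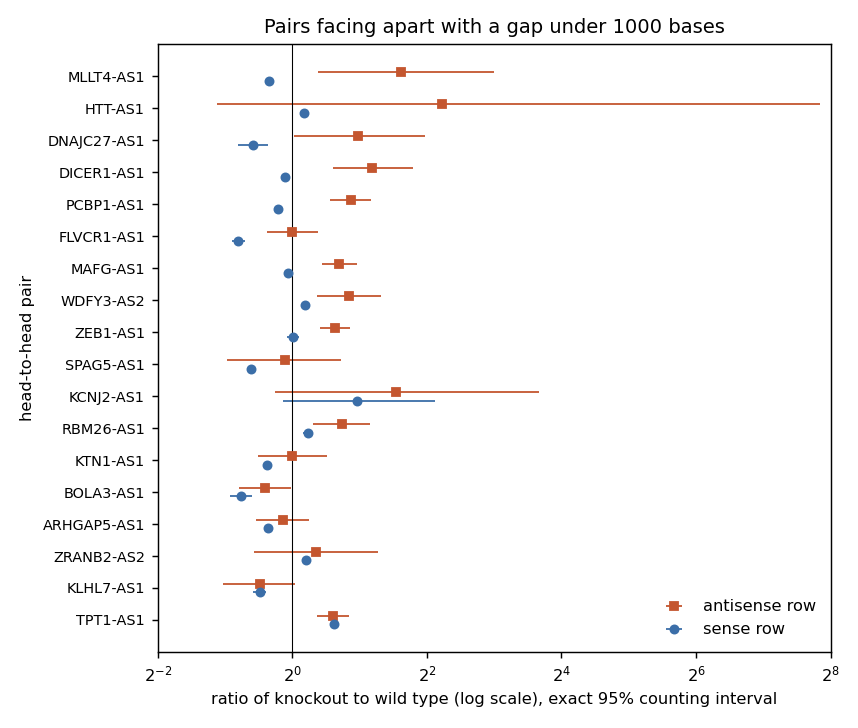
The ratio of knockout to wild type (log scale) with its exact 95% counting interval is drawn for the antisense row (square) and the sense row (circle) of the 18 head-to-head pairs with a gap under 1000 bases, ordered by the difference. The antisense square lies to the right of the sense circle in 17 pairs, and wide intervals mark pairs with few antisense fragments.

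The same direction was found in other head-to-head neighbours with a gap under 1000 bases. For 41 pairs of another long non-coding row and a protein-coding row, the non-coding row had the higher ratio in 32, with a median difference of 0.55. For 563 pairs of 2 protein-coding rows, the less abundant row had the higher ratio in 59.5%, with a median difference of 0.12. Where the less abundant coding row had at least 100 and under 500 fragments, this was 75.7% of 74 pairs, with a median difference of 0.37. Intervals of the ratio of ratios were not computed for these other neighbours. The count of intervals above 1 in the antisense group thus has no like share beside it. In the antisense group the median antisense row had 144.5 fragments and the median sense row 9151. The 41 pairs were ordered by type of row and not by abundance, and only the coding pairs were ordered by abundance. A higher ratio of the non-coding or of the less abundant row was thus also found without an antisense row. Abundance and antisense position cannot be told apart in these pairs.

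Few genes of the machinery that degrades or ends transcripts were called at 2-fold. Over all measured rows 9.12% were called in either direction, and 5.63% of those with 500 fragments or more, as all of these genes had. Of 25 genes of the nuclear exosome and its cofactors, all 25 were measured, 0 were called at 2-fold, and SRRT, which links the cap-binding complex to the exosome, was lower at 1.5-fold with 9694 and 5245 fragments. Their median log2 ratio was -0.16. Of 23 cleavage, polyadenylation and termination genes, 2 were lower at 2-fold and 0 higher. Over all rows 3.37% were lower and 5.75% higher, so the share of this list called lower was above that of all rows, on few genes. TTF2, a termination factor, had 4830 and 1770 fragments, and CPSF4, a subunit that recognises the polyadenylation signal, had 2990 and 1186. Their median log2 ratio was 0.01, and its sign turned with DESeq2 size factors.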

How the data were processed

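For each library the authors deposited a table of gene rows with hg19 coordinates, whose columns give read counts and RPKM, per the file headers. TopHat2 2.0.6, Bowtie and HTSeq were used, per the submitters' processing notes. Not given in the sources used here are the settings, the annotation release and the counting strand. Every deposited count was even, so counts were divided by 2 to give fragments. Each table's RPKM was the deposited count per length and per 1 library total, of which the gene rows made up 72.7% and 72.9%.

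Of 23398 rows, 23 second copies on Y were dropped. Libraries were scaled by TMM in edgeR 4.0.16 (R 4.3.3) on the 16894 rows with at least 10 reads over both libraries. Ratios of scaled fragments were given exact conditional 95% intervals with scipy 1.17.1, log2 ratios used 0.5 added fragments, and pairs were compared by the exact interval of the ratio of ratios. No p-value was computed, since 1 library per line gives no replicate error. A floor of 3 fragments was used for a count of 0. The interval code was checked on simulated data.

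Sense rows were found by symbol (141) or RefSeq synonym (2). Strand came from RefSeq (GRCh38.p14) or GENCODE 29 and exon overlap from GENCODE 29, both matched by name, and no coordinates were converted between builds. Spans and gaps are those of the deposited rows.

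The members, gene lists, markers and tests were chosen with earlier results of these data known. Genes named by rule were members called at 2-fold, the 10 with the highest mean RPKM, characterised members from a list, pairs called in opposite directions, and the 10 pairs with the largest difference by interval. Other members named were chosen after their values were seen, and a few genes of the lists are not reported here. The alternatives tried were total count, upper quartile and DESeq2 1.42.0 scaling, minimums of 1 and 50 reads, undivided counts, a 99% interval, other fold rules, 2 added fragments, RPKM ratios and subsets without span or exon overlap. The ratio to the 50 nearest rows and the subset with at least 100 fragments were added after seeing the data.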

Additional observations from a re-analysis of the deposited data

How the results depend on the processing

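Scaling, read minimum, added fragments and a 99% interval left both counts of members at 0 higher and 1 lower. Undivided counts gave 4 higher, among them EGFLAM-AS4, KANSL1-AS1 and CECR5-AS1. The fold without an interval gave 20 higher and 7 lower, with no share over all rows beside it, and the interval beyond 1.5-fold gave 5 and 2. The lower count was 0 among rows whose span does not overlap the sense gene, among rows without exon overlap and among rows with at least 100 fragments, since HAS2-AS1 is in none of these. For pairs whose spans do not overlap, the median difference was 0.53 and the Spearman correlation 0.52, with fewer pairs in each. For pairs with at least 100 antisense fragments, the median difference was 0.17 and the Spearman correlation 0.23. The median log2 ratio of members ranged from 0.04 with at least 100 fragments to 0.35 for rows with no span overlap, and total count scaling moved all rows by 0.08. Of 28 single rows, 0 changed sign with the scaling. No paired analysis was possible because each line had 1 library. The shares of fragments within pairs do not use the scaling and were not recomputed under it. Depth limits what can be called: of 50 fragments, 39 had to come from the knockout library for a row to be called higher at 2-fold.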
